A study of Mus musculus with 26 samples.

Results

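The genes of the proteasome, the protein-degrading machine of the cell, were followed through RNA of mouse brain nuclei and cytoplasm. They were taken as every protein-coding row of the count table whose mouse symbol reads Psma, Psmb, Psmc, Psmd, Psme, Psmf or Psmg followed by a number. The rule gave 50 genes of 27502 rows, 21107 of which were protein-coding. The mice were 6 to 12 weeks old, and each library held RNA of the whole brain of a single animal. Nuclei were sorted by their tag, and unsorted ("presort") nuclei and cytoplasm served as controls.

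The groups were as follows. Sorted neuron nuclei came from mice with the transgene Tg(Snap25-EGfp/Rpl10a)JD362Htz, sorted astrocyte nuclei from mice with Tg(Aldh1L1-EGfp/Rpl10a)JD130Htz and sorted oligodendrocyte nuclei from mice with Tg(Cnp-EGfp/Rpl10a)JD368Htz, all on a B6.FVB background, with 4 libraries each, 2 from males and 2 from females. Presort nuclei of the neuron, astrocyte and oligodendrocyte lines also had 4 libraries each, split by sex in the same way and sequenced to low coverage. Cytoplasm had 2 libraries, replicate 1 from a male of the astrocyte line and replicate 2 from a female of the oligodendrocyte line. No mouse lacked a transgene: all 3 lines, presort and cytoplasm included, carried an EGFP fusion of ribosomal protein Rpl10a, driven by Snap25, Aldh1L1 or Cnp sequences, so each sorted type is the set of nuclei in which that driver was active. No library was a wild-type control.

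A proteasome is built from a barrel-shaped core particle and the caps that bind its ends. The barrel has outer rings of alpha subunits (Psma genes) and inner rings of beta subunits (Psmb genes), and Psmb5, Psmb6 and Psmb7 carry the proteolytic sites. The regulatory particle, made of ATPases (Psmc genes) and non-ATPase subunits (Psmd genes), recognises ubiquitin-tagged proteins, removes the tag and unfolds the protein. Activators (Psme genes) are alternative caps, Psmf1 encodes an inhibitor of the core that is known from work in vitro, and Psmg genes encode chaperones of core assembly. In neurons the proteasome is known for its part in protein turnover at synapses, and proteasomes are found in both nucleus and cytoplasm as proteins, which the RNA measured here does not show.

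By role, the 50 genes held 7 alpha and 7 beta subunits of the standard core, 3 beta subunits of the immunoproteasome (Psmb8, Psmb9, Psmb10), 6 ATPases, 14 non-ATPase genes, 5 activators, 1 inhibitor and 4 chaperones. Psmd5, Psmd9 and Psmd10, counted with the non-ATPase genes, encode chaperones that help to assemble the regulatory particle. Psma8, an alpha subunit of the testis, had 3 counts over all 26 libraries, and Psmb11, the beta subunit of thymic epithelium, had 5, so both were at the limit of detection and no fold change is given for them. Psmc3ip met the rule by its symbol but encodes a meiotic recombination factor and is no subunit. Psme2b is a near-identical copy of Psme2, so reads may have been split between them and the values of both are uncertain.

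Library totals ran between 134357 and 3239445 counts in sorted nuclei (median 2485416.5), between 147826 and 3274488 in presort nuclei (median 260451), and were 3885312 and 4461568 in cytoplasm. Between 21 and 48 of the 50 genes had at least 1 count in a sorted library, between 36 and 49 in a presort library, and 49 and 50 in the cytoplasmic libraries. Levels below are in CPM, a gene's count scaled to a common library size, with library sizes adjusted by the trimmed mean of M-values (TMM). The summed CPM of 8 markers per cell type went with the labels: oligodendrocyte markers summed to 35093 to 48941 CPM in sorted oligodendrocyte nuclei, astrocyte markers to 17916 to 28982 CPM in sorted astrocyte nuclei and neuron markers to 6004 to 8369 CPM in sorted neuron nuclei. Sorted oligodendrocyte replicate 36 stood apart. Only 21 of the 50 genes had a count there, although its total was 1602594, and the 4 highest (Psmd5, Psmc1, Psmd7 and Psmd2) held 80.9% of its 1417 proteasome counts. Results that rest on this library are given with and without it, or are marked where no fit without it is given.

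Proteasome RNA made up a smaller share of nuclear than of cytoplasmic RNA. Summed over the 50 genes, presort nuclei had 608 to 957 CPM (mean 808 ± 96.6, SD, n = 12), against 2492 and 2686 CPM in cytoplasm. The 14 core genes summed to 180 ± 29.5 CPM in presort nuclei (n = 12), against 769 and 842 CPM in cytoplasm. The 20 genes of the regulatory particle summed to 461 ± 71.9 CPM in presort nuclei, against 1424 and 1463 CPM in cytoplasm. The gap was narrower for activators, which summed to 104 ± 21.2 CPM in presort nuclei, against 207 and 231 CPM in cytoplasm. Chaperones Psmg1 to Psmg4 were rare throughout, at 12.7 ± 6.45 CPM in presort nuclei, against 24.2 and 62.6 CPM in cytoplasm. In all 4 classes both cytoplasmic sums lay above all 12 presort sums, as the plot of class sums shows. These are shares of each library's RNA: in such bulk samples, fewer cells of a type and less RNA per cell cannot be told apart.

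**Figure D1:**
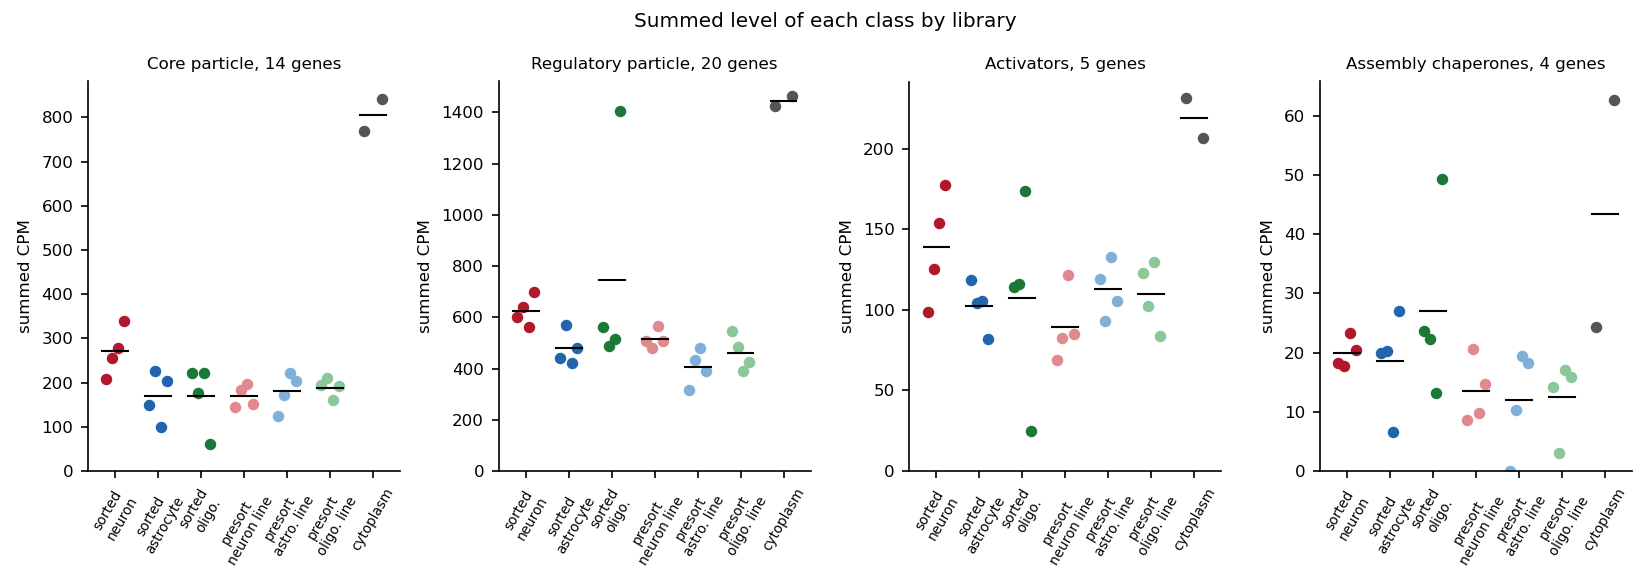
Summed level of 4 classes of proteasome gene in CPM (vertical axis) in each library (points) of the 7 groups (horizontal axis), with a bar at the group mean. Both cytoplasmic libraries lie above every presort library in all 4 classes, and sorted oligodendrocyte replicate 36 has the highest nuclear sum of the regulatory particle.

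Tested gene by gene over all 19532 genes with a count (edgeR's quasi-likelihood test, Benjamini-Hochberg adjustment, no filter on low counts), 39 of the 50 genes were lower in presort nuclei than in cytoplasm at an adjusted p under 0.05 and 0 were higher. Of all genes in that test, 21.3% were lower and 10.1% higher. DESeq2 called 33 of 48 genes lower and 0 higher, where 20.6% of all genes were lower and 15.2% higher. The log2 fold change was negative for 47 genes and positive for 3. Its median was -2.03 over the 50 genes and -0.16 over all genes. Both cytoplasmic libraries lay above all 12 presort libraries for 21 of the 50 genes, and for 10.8% of all genes. The count depended on the scaling. With library totals alone, 22 of 50 genes were lower and 1 higher, where 11.3% of all genes were lower and 18.4% higher. That scaling put the median log2 fold change of the 7728 genes that passed the filter on low counts at 0.43, against -0.12 with TMM. Taking the mean of 3 presort lines gives a line with no count a value set by edgeR's prior count; with the 12 presort libraries as 1 group, 36 of 50 genes were lower, where 21.5% of all genes were. The 3 genes that no longer passed were Psme2, Psme2b and Psmg1. Fold changes of nuclei over cytoplasm below come from the fit without the filter and with 3 lines unless another is named.

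**Figure D2:**
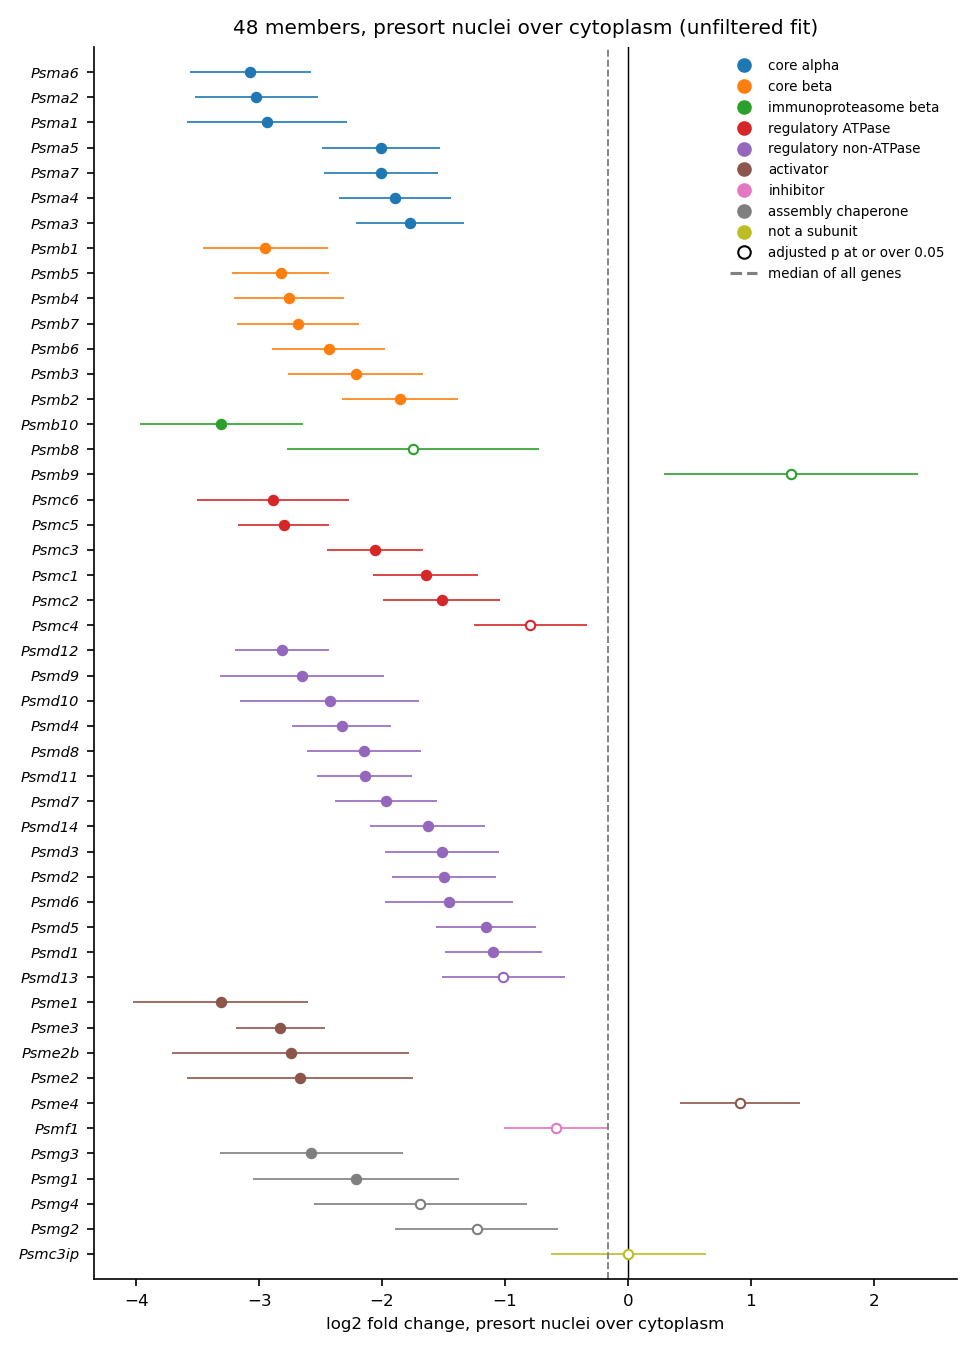
Log2 fold change of presort nuclei over cytoplasm (horizontal axis, with SE) for 48 proteasome genes (one per row), coloured by class; open points have an adjusted p of at least 0.05 and the dashed line marks the median of all genes at -0.16. All 14 core genes lie left of the line with filled points, while Psmf1, Psmc3ip, Psme4 and Psmb9 have open points near or right of it. Psmb8, Psme2 and Psme2b had no count in the presort neuron line, so their points depend on the prior count.

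The core particle was lower throughout. All 7 alpha genes passed the test, with log2 fold changes between -3.07 and -1.77 and a median of -2.01, and so did all 7 beta genes, between -2.95 and -1.85 with a median of -2.68. Psmb5, the subunit with chymotrypsin-like activity and the target of the drug bortezomib, had 5.43, 21.3 and 39.9 CPM as its lowest, median and highest presort values, against 79.2 and 173 CPM in cytoplasm. The 2 sets of libraries did not overlap, and the log2 fold change was -2.83 ± 0.39 (SE, adjusted p = 7.94e-07). Psmb6, with caspase-like activity, had 3.41, 11.3 and 29.1 CPM in presort nuclei, against 35.2 and 90.2 CPM in cytoplasm, again with no overlap (-2.44 ± 0.46, adjusted p = 9.39e-05). Psmb7, with trypsin-like activity, had 0, 9.39 and 24.8 CPM in presort nuclei, against 44.9 and 80.5 CPM in cytoplasm (-2.68 ± 0.50, adjusted p = 7.07e-05). Each of the 3 proteolytic subunits was thus separated from all presort libraries in both cytoplasmic ones. Among alpha genes the extremes were Psma6 at -3.07 ± 0.49 (adjusted p = 9.13e-06) and Psma3 at -1.77 ± 0.44 (adjusted p = 0.00197). Psma6 had 0, 8.97 and 16.4 CPM in presort nuclei, against 83.1 and 28.1 CPM in cytoplasm, and its groups did not overlap.

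The regulatory particle had 18 of 20 genes lower, with a median log2 fold change of -1.81, against -2.56 for the 14 core genes; this difference between the classes was not tested. Of the 6 ATPases, which form the ring that unfolds substrates, 5 were lower. Psmc5 had 12.4, 21.2 and 59.2 CPM as its lowest, median and highest presort values, against 102 and 181 CPM in cytoplasm, with no overlap (-2.80 ± 0.37, adjusted p = 3.82e-07). The exception was Psmc4, at 7.28, 19.3 and 43.2 CPM in presort nuclei, against 26.02 and 35.03 CPM in cytoplasm, whose values overlapped (-0.79 ± 0.46, adjusted p = 0.204). Of the 14 non-ATPase genes, 13 were lower. Psmd12, a scaffold subunit of the lid, had 10.9, 27.5 and 62.7 CPM in presort nuclei, against 272 and 69.0 CPM in cytoplasm. Its groups did not overlap, although the second cytoplasmic library stood only just above the highest presort one (-2.81 ± 0.38, adjusted p = 5.36e-07). The lid includes the enzyme that cuts ubiquitin from the substrate. Psmd4, a ubiquitin receptor, had 5.43, 36.2 and 64.5 CPM in presort nuclei, against 64.5 and 238 CPM in cytoplasm (-2.33 ± 0.40, adjusted p = 2.86e-05). Its highest presort library and lower cytoplasmic library both stood at 64.5 CPM. Other subunits that were lower included Psmd11 at -2.14 ± 0.39 (adjusted p = 5.13e-05), Psmc3 at -2.05 ± 0.39 (adjusted p = 0.000102), Psma7 at -2.01 ± 0.46 (adjusted p = 0.00104), Psmd7 at -1.97 ± 0.42 (adjusted p = 0.000377) and Psma4 at -1.89 ± 0.45 (adjusted p = 0.00146). Psmd1, the large scaffold of the base, changed less, at 14.6, 35.2 and 48.4 CPM in presort nuclei, against 82.8 and 45.5 CPM in cytoplasm (-1.09 ± 0.40, adjusted p = 0.0328). Psmd13, a lid subunit, did not pass the test, at 10.2, 22.4 and 46.5 CPM in presort nuclei, against 19.2 and 52.4 CPM in cytoplasm (-1.01 ± 0.50, adjusted p = 0.127).

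The activators did not behave as a group. Psme3 encodes the subunit of the activator that is known as a nuclear protein, and its RNA was lower in nuclei than in cytoplasm. It had 7.37, 27.4 and 37.2 CPM as its lowest, median and highest presort values, against 151 CPM in each cytoplasmic library. The groups stood far apart (-2.83 ± 0.36, adjusted p = 1.78e-07). Psme1, a subunit of the interferon-inducible activator, had no count in 7 of 12 presort libraries and at most 15.5 CPM in the rest, against 17.2 and 30.3 CPM in cytoplasm (-3.31 ± 0.71, adjusted p = 0.000459). Its partner Psme2 had no count in 5 presort libraries and 2.73 and 10.9 CPM as median and highest, against 6.51 and 8.27 CPM in cytoplasm, and its groups overlapped. All 4 presort libraries of the neuron line were at 0 for Psme2 and for its copy Psme2b, so no fold change is given for either. The Psme2 call depended on the fit: adjusted p was 0.0261 with the mean of 3 lines and 0.137 with the presort libraries as 1 group.

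Psme4, which encodes a large monomeric activator known from DNA repair and from histone degradation in the testis, ran the other way without passing the test. It had 40.3, 66.1 and 98.8 CPM as its lowest, median and highest presort values, against 51.5 and 8.27 CPM in cytoplasm. The groups overlapped: 12 of 12 presort libraries lay above cytoplasm replicate 2, and 9 of 12 above replicate 1. The log2 fold change was 0.91 ± 0.49 (adjusted p = 0.159), and 1.09 ± 0.50 (adjusted p = 0.0789) with the filter, which all 12 presort libraries met. With the filter and without cytoplasm replicate 1, it was 3.004 (adjusted p = 0.000209, with a single cytoplasmic library assumed to vary like the other groups), without replicate 2 it was 0.34 (adjusted p = 0.519), and with library totals as scaling 1.76 (adjusted p = 0.0075). Among sorted libraries, 12 of 12 lay above cytoplasm replicate 2 and 11 of 12 above replicate 1; the exception was oligodendrocyte replicate 36 at 25.2 CPM. With 547 counts in presort, 2210 in sorted and 204 in cytoplasmic libraries, Psme4 was well sampled. Per kilobase of annotated exon it ranked 13th of 50 in presort nuclei at 8.13 CPM per kb, and 45th in cytoplasm at 3.56 CPM per kb. Both ranks depend on the annotated exon lengths.

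Psmf1, the inhibitor, had 16.0, 35.8 and 55.9 CPM in presort nuclei, against 28.4 and 51.6 CPM in cytoplasm, and the groups overlapped. Its log2 fold change was -0.58 ± 0.43 (adjusted p = 0.33). With the filter it was -0.42 (adjusted p = 0.378), and it was positive there with library totals as scaling and without cytoplasm replicate 2. Of the 4 core chaperones, Psmg1 (-2.21, adjusted p = 0.0423) and Psmg3 (-2.58, adjusted p = 0.00782) were lower, though Psmg1 missed the threshold with the presort libraries as 1 group (adjusted p = 0.052), and Psmg2 (-1.23, adjusted p = 0.164) and Psmg4 (-1.69, adjusted p = 0.143) did not pass. All 4 had presort libraries with no count, and none separated the groups.

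**Figure D3:**
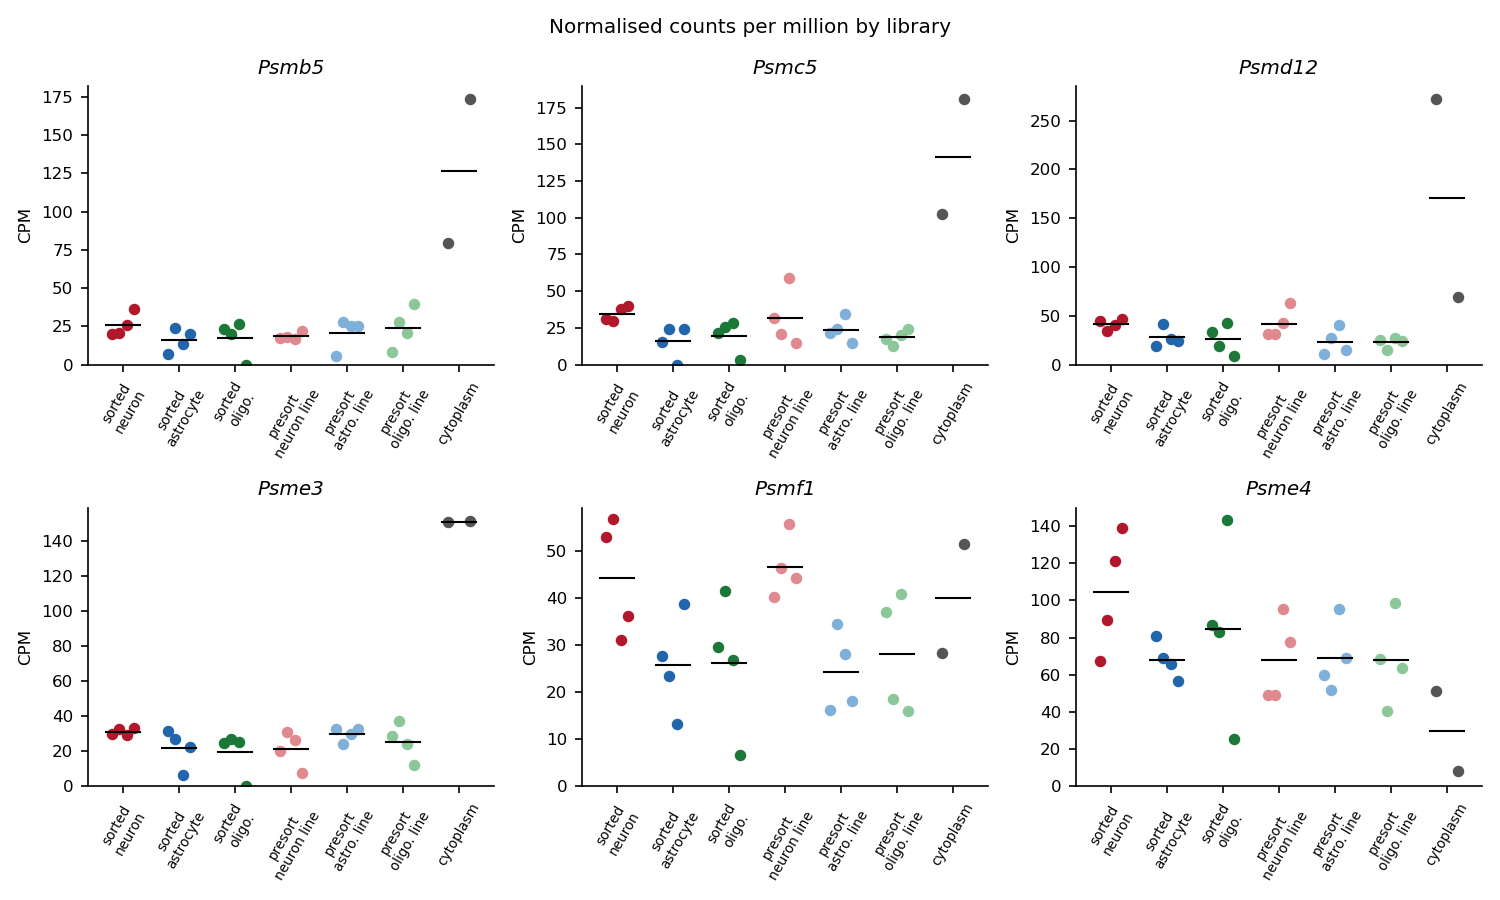
Level in CPM (vertical axis) of Psmb5, Psmc5, Psmd12, Psme3, Psmf1 and Psme4 in each library (points) of the 7 groups (horizontal axis), with a bar at the group mean. For Psmb5, Psmc5, Psmd12 and Psme3 both cytoplasmic points lie above all presort points, for Psmf1 they overlap, and for Psme4 one cytoplasmic point, at 8.27, lies below every nuclear point.

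Promoter sequence was examined for 3 genes that were lower in nuclei and whose libraries did not overlap with cytoplasm, and for Psme4, whose fold change was positive, because proteasome genes are known to be induced together by Nfe2l1, a transcription factor that binds antioxidant response elements. RefSeq promoter windows on GRCm38.p6, with 250 bases before and 50 after the start of the gene, were found for 42 of the 50 genes (45 windows). The 4 windows below run 5′ to 3′ on the gene's strand, and capitals mark matches, on either strand, to TGACNNNGC (the core of that element), CCGGAA (the core of ETS family sites) or CCAAT.
Psmb5, chr14:54617946-54618245, minus strand: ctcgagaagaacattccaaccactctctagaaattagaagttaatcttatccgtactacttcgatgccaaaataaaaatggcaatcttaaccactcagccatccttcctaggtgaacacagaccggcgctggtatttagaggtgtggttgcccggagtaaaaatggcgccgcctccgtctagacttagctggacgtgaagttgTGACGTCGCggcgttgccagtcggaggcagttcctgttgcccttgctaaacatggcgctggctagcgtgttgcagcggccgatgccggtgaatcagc
Psme3, chr11:101315963-101316262, plus strand: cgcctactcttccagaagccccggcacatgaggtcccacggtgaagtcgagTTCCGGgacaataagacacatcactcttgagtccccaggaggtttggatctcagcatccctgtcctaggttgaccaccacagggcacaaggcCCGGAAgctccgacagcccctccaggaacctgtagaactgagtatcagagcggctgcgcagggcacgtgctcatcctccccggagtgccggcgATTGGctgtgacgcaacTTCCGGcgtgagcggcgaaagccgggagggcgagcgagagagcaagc
Psmd12, chr11:107479278-107479577, plus strand: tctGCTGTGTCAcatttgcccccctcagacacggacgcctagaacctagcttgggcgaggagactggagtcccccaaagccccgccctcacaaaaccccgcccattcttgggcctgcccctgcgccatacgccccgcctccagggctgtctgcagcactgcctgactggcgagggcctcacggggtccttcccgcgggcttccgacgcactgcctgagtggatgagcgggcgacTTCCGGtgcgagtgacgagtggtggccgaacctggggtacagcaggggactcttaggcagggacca
Psme4, chr11:30771525-30771824, plus strand: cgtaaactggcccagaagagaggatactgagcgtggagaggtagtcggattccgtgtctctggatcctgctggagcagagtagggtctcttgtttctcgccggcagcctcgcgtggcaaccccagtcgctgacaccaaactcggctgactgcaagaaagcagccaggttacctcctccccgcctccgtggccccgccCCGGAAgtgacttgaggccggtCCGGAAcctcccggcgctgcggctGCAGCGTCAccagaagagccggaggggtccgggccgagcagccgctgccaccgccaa

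The Psmb5 window held TGACNNNGC and neither of the others. Psme3 held 3 copies of CCGGAA and 1 CCAAT, Psmd12 held 1 TGACNNNGC and 1 CCGGAA, and Psme4 held 1 TGACNNNGC and 2 CCGGAA. The strings therefore did not separate Psme4 from the genes that were lower in nuclei. Over all 45 windows, CCGGAA was present in 22, or 48.9%, against 14.9% of all 32851 windows and 18.7% of the 21262 windows of protein-coding genes. TGACNNNGC was present in 6 windows, or 13.3%, against 12.4% of all windows, and TGAGNNNGC in 14, or 31.1%, against 17.6%. TGACTCAGC, a stricter form of TGACNNNGC, was in 0 member windows and 0.454% of all. CCAAT was in 33.3% of member windows and 37.4% of all, TATAAA in 8.89% and 13.6%, the palindrome bound by nuclear respiratory factor in 4.44% and 0.971%, ATGGCGGC in 4.44% and 2.24%, and AAGATGGCG, which can overlap ATGGCGGC, in 4.44% and 1.4%. All 9 strings were searched on both strands. A match describes the letters and is no evidence of binding.

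Psmb5 lies on chromosome 14 (54614119-54618022, minus strand), and on chromosome 11 lie Psmc5 (106256154-106263120), Psmd12 (107479484-107504362), Psme3 (101316213-101323537) and Psme4 (30771726-30880361), all on the plus strand of GRCm38 in the GENCODE M21 annotation. Psme4 is the longest of these, with 50 exon blocks. Over the 47 genes with at least 10 cytoplasmic counts, the log2 fold change had a Pearson's r of 0.29 with the log10 length of the gene, and of 0.25 over 13151 protein-coding genes. Genes within a library are not independent, and these values are a description.

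Other gene groups of protein synthesis and turnover were read from the same test. Of 79 cytosolic ribosomal protein genes, 77 were lower in presort nuclei than in cytoplasm, with a median log2 fold change of -3.08, and of 94 respiratory chain genes, 84 were lower, with a median of -2.99. Both medians lay beyond the -2.03 of the proteasome genes, and the same share of all genes, 21.3%, is the background for each. Of 19 genes for regulators and partners of the proteasome, 14 were lower and 0 higher. Pomp, the maturation factor of the core, had 3.69 to 40.3 CPM in presort nuclei, against 130 to 145 CPM in cytoplasm (-3.23, adjusted p = 1.62e-07). Zfand5, a proteasome-binding zinc finger protein, was also lower, at 10.3 to 34.1 CPM in presort nuclei, against 58.7 to 365 CPM in cytoplasm (-3.54, adjusted p = 9.44e-09). So was Ubqln2, a shuttle for ubiquitinated proteins, at 13.6 to 55.8 CPM in presort nuclei, against 153 to 434 CPM in cytoplasm (-3.50, adjusted p = 1.68e-09). Ecpas, an adaptor and scaffold of the proteasome, had 132 to 240 CPM in presort nuclei, against 48.3 to 107 CPM in cytoplasm, and did not pass (0.85, adjusted p = 0.0737); with the filter it was higher (1.03, adjusted p = 0.0166). Of 10 genes of the ubiquitin pathway, 7 were lower and 0 higher, among them the ubiquitin genes Ubb (-3.50, adjusted p = 1.87e-10) and Rps27a (-3.22, adjusted p = 1.26e-06). Ubb had 114 to 619 CPM in presort nuclei, against 3110 to 5137 CPM in cytoplasm.

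Cell-type markers moved with this comparison. Neuron markers summed to 2636 to 4350 CPM in presort nuclei, against 8620 and 18414 CPM in cytoplasm, and 6 of 8 were lower in nuclei. Endothelial markers summed to 90.3 to 1118 CPM in presort nuclei, against 9.76 and 14.6 CPM in cytoplasm, and 8 of 8 were higher. Of astrocyte markers 4 were higher and 1 lower, of oligodendrocyte markers 3 were lower, and microglia markers summed to 97.0 to 443 CPM in presort nuclei, against 149 and 266 CPM in cytoplasm. The part of these markers in the proteasome result was not tested. Coverage also differed, with a median presort total of 260451 counts. Thinned to 147826 counts each, 20 of 49 genes were lower, where 10.3% of all genes were.

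The 2 cytoplasmic libraries differed from each other by subunit class, a pattern noticed after the values were seen and not tested. Of the 7 alpha genes, 6 were higher in replicate 1 than in replicate 2, with a median log2 ratio of 1.51, whereas all 7 beta genes were higher in replicate 2, with a median of -1.13. Psma2 had 106 CPM in replicate 1 and 36.7 CPM in replicate 2; Psma7, the exception among the alpha genes, had 29.3 and 84.1 CPM. Non-ATPase genes split 8 to 6 (median 0.64) and ATPases 2 to 4 (median -0.37). Gaps of this size were at least as frequent among all genes: 23.4% of 47 proteasome genes were more than 2-fold higher in replicate 1 and 27.7% in replicate 2, against 25.7% and 31% of 13151 protein-coding genes. Line, sex and library cannot be told apart between these libraries, which have no replicate, so a fold change of a single gene against cytoplasm carries this spread.

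**Figure D4:**
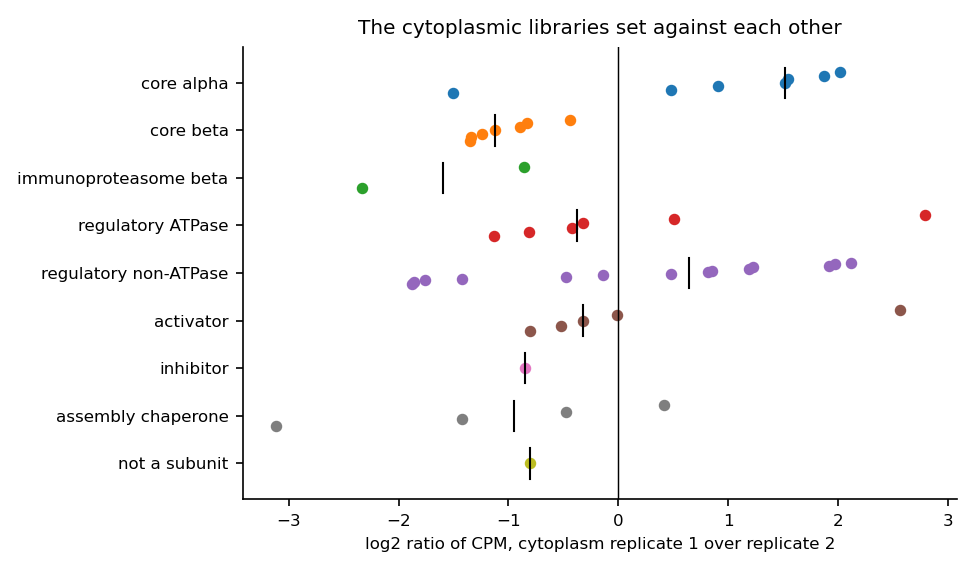
Log2 ratio of CPM, cytoplasm replicate 1 over replicate 2 (horizontal axis), for 47 proteasome genes with at least 10 cytoplasmic counts (points), by class (vertical axis), with a bar at the class median. Alpha genes lie mostly right of 0 and beta genes all left of 0.

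Among sorted nuclei, neurons had the highest mean summed level of the core, and no gene passed the test between neurons and glia with all libraries in the fit. The 14 core genes summed to 271 ± 54.4 CPM in sorted neuron nuclei, 169 ± 57.1 CPM in sorted astrocyte nuclei and 170 ± 75.5 CPM in sorted oligodendrocyte nuclei (SD, n = 4 each), or 206 ± 25.7 CPM in oligodendrocytes without replicate 36 (n = 3). The astrocyte mean includes replicate 30, with a total of 134357 counts and only 100 proteasome counts. Its core sum was 98.8 CPM, against 149, 226 and 203 CPM in astrocyte replicates 6, 8 and 32. The regulatory particle summed to 625 ± 57.6 CPM in neurons, 479 ± 65.9 CPM in astrocytes and 744 ± 443 CPM in oligodendrocytes, the last being 523 ± 37.5 CPM without replicate 36. Activators summed to 139 ± 34.2 CPM in neurons, 103 ± 15.2 CPM in astrocytes and 107 ± 61.3 CPM in oligodendrocytes, or 134 ± 33.9 CPM without replicate 36 (n = 3), which had 25.2 CPM.

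Neurons were set against the mean of both glial types over 13029 genes, of which 11.1% were higher and 11.8% lower in neurons by edgeR's quasi-likelihood test with Benjamini-Hochberg adjustment. Of the 42 proteasome genes tested, 0 passed in either direction, 1 had an unadjusted p under 0.05 (32.8% of all genes did), and DESeq2 called 1 higher (Psma7, adjusted p = 0.0192; 13.7% of all genes were higher). The log2 fold change was positive for 35 of 42 genes, with a median of 0.53, against 0.05 over all genes. The filter let through 42 of the 50 genes. The median was 0.80 for the core and 0.41 for the regulatory particle; ribosomal protein genes had 0.79 and respiratory chain genes 0.68. All these medians include oligodendrocyte replicate 36. Without it the median of the 42 proteasome genes was 0.38, and 36 of 42 were positive. Medians of the classes and of the other gene groups were not taken without it. Without oligodendrocyte replicate 36, which enters the estimate of spread that all 3 sorted types share, 2 genes passed, both higher, where 19% of all genes were higher and 20.9% lower.

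Those 2 genes were Psma7, an alpha subunit, and Psmc4, an ATPase. Psma7 had 21.03, 29.997, 17.02 and 23.98 CPM in sorted neuron nuclei, against 9.76, 12.7, 6.59 and 12.8 CPM in astrocyte nuclei and 13.7, 10.2, 11.5 and 0 CPM in oligodendrocyte nuclei. Every neuron library lay above every glial one. The log2 fold change was 1.19 ± 0.54 with all libraries (adjusted p = 0.135) and 0.99 ± 0.29 without replicate 36 (adjusted p = 0.0102). Psmc4 had 29.4, 23.3, 33.2 and 45.6 CPM in neuron nuclei, against 13.2, 33.9, 6.59 and 19.5 CPM in astrocyte nuclei and 14.1, 12.7, 17.6 and 0 CPM in oligodendrocyte nuclei, so that 1 astrocyte library overlapped the neurons. Its log2 fold change was 1.13 ± 0.57 with all libraries (adjusted p = 0.186) and 0.91 ± 0.31 without replicate 36 (adjusted p = 0.0276). Psmc4 was the ATPase that did not pass between nuclei and cytoplasm. Libraries did not overlap between neurons and glia for 2 genes, Psma7 and the ATPase gene Psmc5, both higher in neurons, against 7.21% of all genes. In astrocyte replicate 30, a library of low coverage, the 6.59 CPM of Psma7 and of Psmc4 was 1 count each, and Psmc5 had 0.

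**Figure D5:**
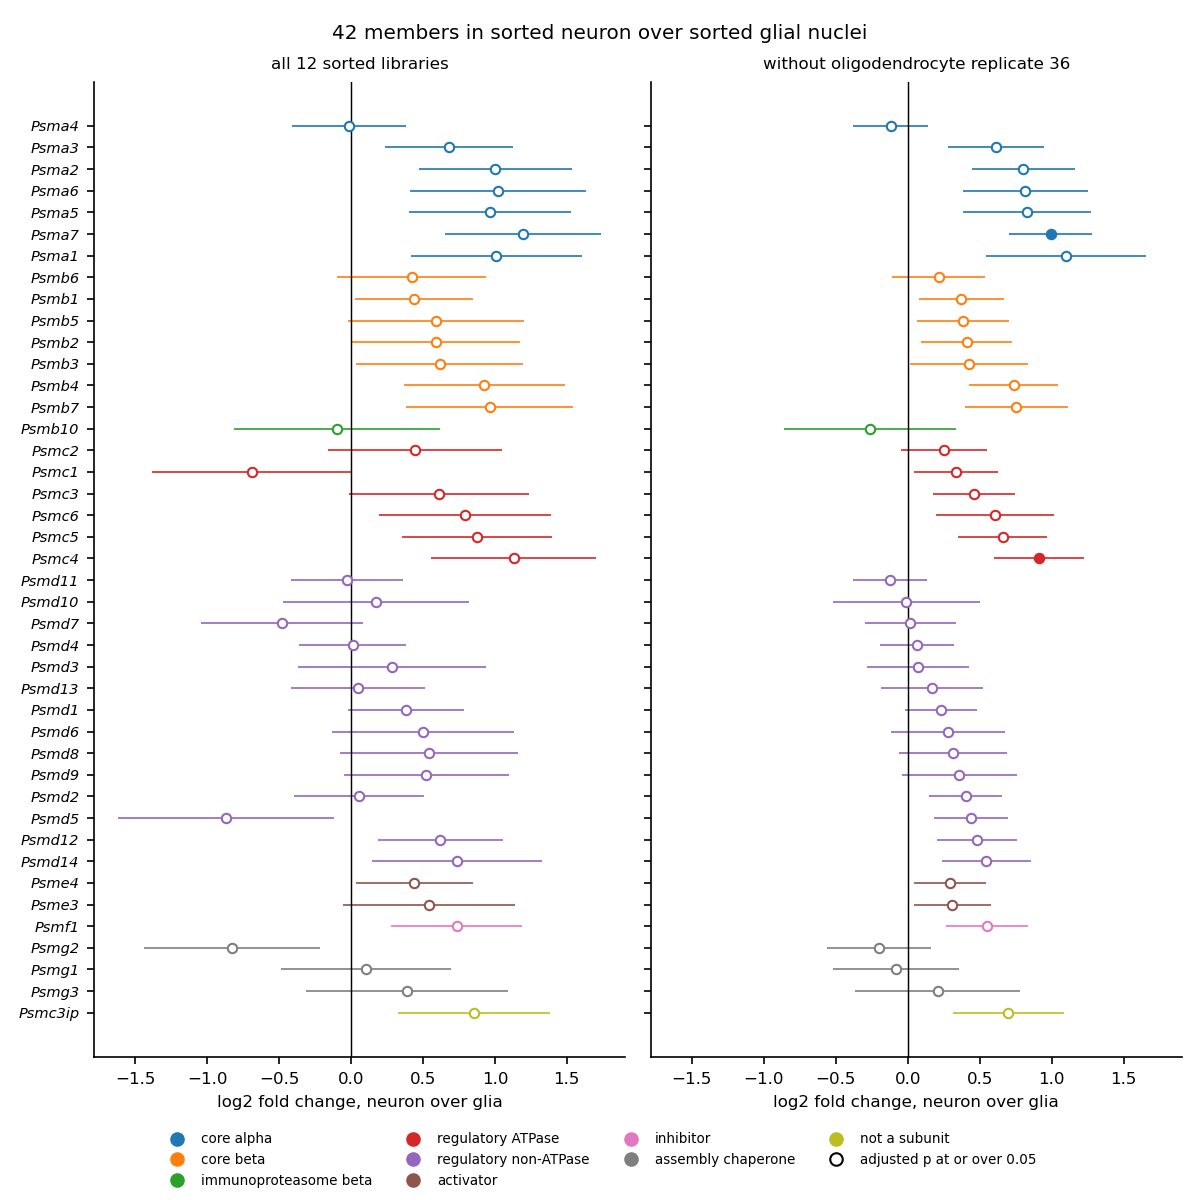
Log2 fold change of sorted neuron over sorted glial nuclei (horizontal axis) for 42 proteasome genes (one per row), with all libraries and without oligodendrocyte replicate 36. Most genes lie right of 0 in both fits, and Psmd5 and Psmc1 change most when the replicate is left out.

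Against astrocytes alone, 0 of 42 genes passed (8.02% of all genes were higher in neurons and 11.4% lower), 0 had an unadjusted p under 0.05 (28.8% of all genes did), and DESeq2 called Psme1 lower (adjusted p = 0.0451; 13.3% of all genes were lower). The log2 fold change was positive for 37 of 42, with a median of 0.46 against 0.05 over all genes. Psmb4, a beta subunit, was highest at 1.06 ± 0.69, with 15.5, 16.6, 16.6 and 19.7 CPM in neurons, against 5.85, 9.50, 6.59 and 9.40 CPM in astrocytes. These values did not overlap, and without replicate 36, which belongs to neither group but enters the spread, it passed (1.05 ± 0.37, adjusted p = 0.0333), as did Psma7 (1.01 ± 0.34, adjusted p = 0.0275), where 17% of all genes were higher and 20.6% lower. Psmb10 was lowest, at -1.12 ± 0.78. The astrocyte value of 6.59 CPM for Psmb4, from replicate 30, was 1 count.

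Against oligodendrocytes, 0 of 42 genes passed (10.7% of all genes were higher in neurons and 12.4% lower), 3 (Psmc1, Psmc4 and Psmd5) had an unadjusted p under 0.05 (34.5% of all genes did), and DESeq2 called Psma7 and Psmc4 higher (15.3% of all genes were). Without replicate 36 these same 2 genes passed (Psma7 0.98 ± 0.36, adjusted p = 0.041; Psmc4 1.16 ± 0.40, adjusted p = 0.0295), where 16.7% of all genes were higher and 18.8% lower. With all libraries Psmc4 was also highest, at 1.54, and Psmd5 lowest, at -2.02; Psmd5 had 576 CPM in replicate 36, against 19.4 to 36.2 CPM in the other 3 oligodendrocyte libraries, and its log2 fold change was 0.57 without that replicate.

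Between the glial types 1 gene passed, and it rested on replicate 36. Psmc1, an ATPase, was lower in astrocytes than in oligodendrocytes (-2.52 ± 0.83, adjusted p = 0.0469), where 9.62% of all genes were higher in astrocytes and 7.49% lower. Without the filter on low counts Psmc1 and Psmd5 were lower, where 5.85% of all genes were, and with DESeq2 0 were. Replicate 36 had 400 CPM of Psmc1, against 24.7 to 36.9 CPM in the other 3 oligodendrocyte libraries, and without it the log2 fold change was -0.46 (adjusted p = 0.424). Without replicate 36 Psma4, an alpha subunit, was lower in astrocytes instead (-1.002, adjusted p = 0.028), where 14.6% of all genes were higher and 11.7% lower. Psmb10 was highest in astrocytes relative to oligodendrocytes, at 2.04 ± 0.83 (adjusted p = 0.113 with all libraries). Psma4 had 18.5, 28.04, 13.2 and 29.7 CPM in astrocytes, against 51.0, 50.6 and 46.7 CPM in the other 3 oligodendrocyte libraries and 27.3 CPM in replicate 36.

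The immunoproteasome genes replace the proteolytic beta subunits after interferon signalling and shape the peptides that class I molecules present. They were barely sampled, with 49 counts of Psmb8, 50 of Psmb9 and 346 of Psmb10 over all 26 libraries. Psmb10 was lower in presort nuclei than in cytoplasm, at 0, 3.35 and 10.3 CPM as its lowest, median and highest values in nuclei, against 8.87 and 46.6 CPM in cytoplasm (-3.31 ± 0.66, adjusted p = 0.000203). Psmb8 had 0, 0.57 and 18.6 CPM as its lowest, median and highest presort values, against 2.37 and 4.69 CPM in cytoplasm, with 6 of 12 presort libraries at 0, among them all 4 of the neuron line. Psmb9 had 0, 5.43 and 21.7 CPM in presort nuclei, against 0.296 and 2.21 CPM in cytoplasm, with 4 presort libraries at 0. Neither passed the test (adjusted p = 0.211 for Psmb8 and 0.369 for Psmb9), and at these counts no fold change is given for them. Exons of Psmb9 overlap those of Tap1 on the other strand, and reads were not stranded, so their counts cannot be told apart where they overlap. The same limit holds for Psma4, Psma5, Psmb7, Psmb8, Psmc3, Psmc3ip, Psmd1, Psmd3, Psmd9, Psmd13 and Psme1, whose exons also overlap another gene on the other strand. On the same strand, exons of Psmb5, Psmd1, Psme2b and Psmg3 overlap another annotated gene. Psmb5, Psmb6 and Psmb7 also have pseudogenes named after them, whose part in the counts was not tested. In sorted neuron nuclei Psmb9 had no count in any of 4 libraries, and in sorted astrocytes it reached at most 0.976 CPM.

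A list of 12 class I presentation genes was read beside them. Of 11 tested between sorted neurons and astrocytes, 6 were lower in neurons, where 11.4% of all genes were. Tap1, a peptide transporter, had no count in neurons, against 18.1 to 52.7 CPM in astrocytes (adjusted p = 0.000114). H2-K1, a class I heavy chain, had 0 to 5.95 CPM in neurons, against 85.6 to 277 CPM in astrocytes (-5.93, adjusted p = 0.00128). Between presort nuclei and cytoplasm 2 of the 12 genes were higher and 1 lower, where 10.1% of all genes were higher and 21.3% lower. H2-K1 was higher, at 23.2 to 151 CPM in presort nuclei, against 3.55 to 10.8 CPM in cytoplasm (3.04, adjusted p = 0.000188), and so was H2-D1 (1.75, adjusted p = 0.0108), in the comparison in which endothelial markers were also higher. Against glia, 3 class I genes of 11, 1 regulator or partner of 18 and 0 ubiquitin pathway genes of 10 were lower in neurons. In these lists 0 were higher, where 11.8% of all genes were lower and 11.1% higher. Of 76 ribosomal protein genes 1 was higher, and of 85 respiratory chain genes 4 were, against the same 11.1%. Oligodendrocyte replicate 36 was in this fit. Against oligodendrocytes Nploc4, a cofactor of the Vcp unfoldase, was lower in neurons with all libraries in the fit (-1.96, adjusted p = 0.0316). It had 32.6 to 66.7 CPM in neurons, against 55.5 to 501 CPM in oligodendrocytes (185 ± 212, SD, n = 4). With so wide a spread the call may rest on a single library, and it was not tested without replicate 36. Of the regulators, Nfe2l2, a transcription factor of the antioxidant response, was lower in neurons, at 3.97 to 12.2 CPM, against 52.7 to 85.6 CPM in astrocytes (-2.97, adjusted p = 0.00647).

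Sorted and presort nuclei of each line were compared to see what the sort changed. In the neuron line 0 of 36 genes passed between sorted and presort nuclei (1.27% of all genes were higher in sorted nuclei and 5.1% lower). Psmb1, a beta subunit, came closest, at 15.1, 17.0, 17.8 and 24.4 CPM in sorted neuron nuclei. Presort nuclei of that line had 2.88, 2.58, 6.58 and 7.37 CPM, from only 1, 1, 2 and 2 counts. The values did not overlap, and the log2 fold change was 1.84 ± 0.53 (adjusted p = 0.0514, or 0.0287 with sex as a covariate, where 3.7% of all genes were higher). With each presort library blocked with the sorted library of the next replicate number, a pairing the labels do not state, it passed (1.83, adjusted p = 0.0374), where 4.95% of all genes were higher. Without the filter it passed (adjusted p = 0.0405), where 2.02% of all genes were higher. All these settings rest on the same few presort counts. Libraries did not overlap for 7 genes, all higher in sorted nuclei, against 7.74% of all genes. In the astrocyte line 0 of 33 genes passed (13.7% of all genes were higher and 15.2% lower), with Psmb4 lowest at -1.14 ± 0.45 (adjusted p = 0.0656) and Psmc3 highest at 0.63 ± 0.41 (adjusted p = 0.293). Psmb9 was lower in sorted astrocyte nuclei without the filter (adjusted p = 0.00465; 13.1% of all genes were lower), and DESeq2 also called it lower (adjusted p = 0.00698; 11.4% of all genes were). It had 2, 2, 0 and 2 counts in these sorted libraries, against 4, 2, 15 and 2 in presort libraries of the line. In the oligodendrocyte line 0 of 27 passed (5.12% of all genes were higher and 3.24% lower), with Psmc1, which rests on replicate 36, highest at 2.48 ± 1.08 (adjusted p = 0.185) and Psma7 lowest at -1.09 ± 0.90 (adjusted p = 0.545); DESeq2 called Psmb8 lower (adjusted p = 0.0239; 8.71% of all genes were). The Psmb8 call rests on 2, 2, 1 and 0 counts in sorted libraries, the 0 in replicate 36, against 2, 6, 0 and 2 in presort libraries. DESeq2 was not run without replicate 36. A gene that misses the threshold here is not shown to be equal in sorted and presort nuclei. Between the 3 lines in presort nuclei, 0 of 10 proteasome genes and 0 of all 6049 genes passed.

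Per kilobase of annotated exon, with the exons of all transcripts joined, Psmb5 and Psmc5 ranked first and second in sorted neuron nuclei, in presort nuclei and in cytoplasm. The ranks depend on these lengths, 899 bases for Psmb5 and 1394 for Psmc5. The exons behind the deposited counts are not known, so the ranks are a rough description. Psmb5 had 28.7 ± 8.49 CPM per kb in sorted neuron nuclei (SD, n = 4), 23.6 ± 10.2 in presort nuclei (n = 12) and 141 in cytoplasm (mean of 2). Psmc5 had 24.97 ± 3.51 CPM per kb in sorted neuron nuclei, 17.6 ± 9.15 in presort nuclei and 101 in cytoplasm. The next was Psmc3, an ATPase, at 22.5 ± 5.64 in sorted neuron nuclei and 13.8 ± 6.63 in presort nuclei, and Psmd12 at 64.4 in cytoplasm. Differences between these neighbours were within their spread.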

How the data were processed

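RNA was made from whole brain nuclei and cytoplasm and amplified with the NuGEN Ovation RNAseq V2 kit, per the labels' protocols, which neither marks strand nor molecules. The authors deposited a table of read counts per gene, with no normalisation. Trimmomatic, Bowtie2, STAR, bedtools and edgeR are named in the submitters' processing notes; no source used here gives the genome build, annotation or counting settings. Of 27502 gene IDs, 26495 matched GENCODE M21, which gave positions, exon lengths and biotypes, and 1007 did not. In all, 6450 rows had no count in any library.

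Counts were tested with edgeR 4.0.16 (limma 3.58.1, R 4.3.3): TMM factors, a filter on low counts (filterByExpr by group, minimum count 10), glmQLFit and glmQLFTest, two-sided, with p-values adjusted by Benjamini and Hochberg over all genes tested and a threshold of 0.05. Between nuclei and cytoplasm the filter asked for 38.0 CPM, which 21 of the 50 genes met, 16 of them in presort libraries alone and 5 (Psma3, Psma4, Psma7, Psmb5 and Psmc5) only with cytoplasm counted; 18 of those were lower and 0 higher, where 29.3% of the 7728 genes tested were lower and 19% higher. Counts over all 50 genes and their fold changes against cytoplasm therefore come from the fit without the filter, in which fold changes of genes with few counts depend on edgeR's prior count. The 3 sorted types shared one fit of 12 libraries, and neurons were set against the mean of the 2 glial types. DESeq2 1.42.0, other scalings, thinning of each library to 147826 counts, one sex at a time and each library left out were alternatives; library totals as scaling, all 24 nuclear libraries against cytoplasm, the 12 presort libraries as 1 group, a block of consecutive replicate numbers, the joint omission of sorted astrocyte replicate 30 (134357 counts) and sorted oligodendrocyte replicate 36, and the alternatives to the unfiltered count were added after seeing the data. The scripts were tested on simulated counts with known changes.

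No 2 libraries of a group agreed within sampling noise (lowest chi-square per degree of freedom 1.97). The series' design text describes presort RNA of each mouse, but no label ties a presort to a sorted library. Within a line and sex their numbers run consecutively (presort 1, sorted 2), and the deviations of such neighbours from their group means correlated at 0.20 to 0.33 in the neuron line and at -0.00034 to 0.17 in the glial lines. Of 12 sorted libraries, 8 correlated most with this neighbour among the presort libraries of their line. Because no label states the pairs, the main fits have no block, and fits with a block are given as an alternative. The genes and lists were chosen with earlier results of these data known. Values are given for the proteolytic subunits with their immunoproteasome counterparts, the activators, genes past the threshold (up to 10 a direction) and the highest and lowest of each comparison; other genes named were chosen after their values were seen.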

Additional observations from a re-analysis of the deposited data

Results flagged for a closer look

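In 125 groups of 4 libraries examined, 8 values lay farther from the other 3 than Dixon's 95% limit for 4 values allows, and chance alone flags about 1 group in 20. Of these, 6 belonged to sorted oligodendrocyte replicate 36. Its 50 genes summed to 1550 CPM, against 852.3 to 963.5 CPM in the other 3 libraries, and its regulatory particle to 1406 CPM, against 489.4 to 563.6 CPM. Psmd5 stood at 576.4 CPM, against 19.4 to 36.2 CPM, and Psmc1 at 400.3 CPM, against 24.7 to 36.9 CPM. Psmb7 had 0 CPM, against 9.04 to 10.1 CPM, and Psme3 had 0 CPM, against 24.9 to 27.1 CPM. The library had 29 of the 50 genes at 0, while its oligodendrocyte markers were as high as in the others. The cause was not tested.

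The other 2 were in presort libraries of low coverage. Psmb5 was 5.43 CPM in replicate 5 of the astrocyte line, against 25.4 to 27.7 CPM in the others, and Psmc4 was 28.5 CPM in replicate 9 of the oligodendrocyte line, against 15.5 to 17.0 CPM.

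For 2 genes, sorted and presort libraries did not overlap in 2 lines, with opposite directions. Psmb4 had a log2 fold change of sorted over presort nuclei of 1.31 in the neuron line and -1.14 in the astrocyte line. The difference, 2.47 ± 0.90 (SE), did not pass, with an adjusted p of 0.0654 over 12171 genes by edgeR's quasi-likelihood test. It rests on few presort counts of Psmb4: 2, 1, 2 and 3 in the neuron line and 3, 4, 57 and 5 in the astrocyte line. Psme2, without the filter, had 4.63 in the neuron line, where all 4 presort libraries were at 0 so that the value depends on the prior count, and -2.42 in the oligodendrocyte line. That difference was not tested.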

How the results depend on the processing

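Shares in parentheses are those of all genes tested called in the same direction. Between presort nuclei and cytoplasm, 18 of 21 genes past the filter were lower (29.3%). Other settings gave 39 of 50 with no filter (21.3%), 33 of 48 with DESeq2 (20.6%), 10 of 12 when thinned to equal totals of 147826 counts (22.4%), 31 of 48 with all 24 nuclear libraries (19.8%), and 9 of 21 lower (18.4%) and 1 higher (30.6%) with library totals. Leaving out each library gave 15 to 20 lower (24.7% to 30.3%) and 0 to 1 higher (16.7% to 23.6%). From the unfiltered 39, library totals gave 22 lower (11.3%) and 1 higher (18.4%), thinning 20 (10.3%), the filter 18, and leaving out each library 28 to 39 lower (16.6% to 21.3%) and 0 to 1 higher (8.8% to 12.9%). With the filter, the single higher gene was Psme4. With the filter, the log2 fold change of Psmf1 was 0.085 with library totals and ran between -0.70 and 0.12 when each library was left out, and that of Psmd13 between -1.33 and 0.072, both positive without cytoplasm replicate 2; omission of a cytoplasmic library leaves 1, assumed to vary like the other groups. Over genes and settings with the filter, 34 values lost the call, 3 gained it, 3 changed sign and 426 did none of these.

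Between neurons and astrocytes DESeq2 called 1 gene lower (13.3%), and omitting the 2 doubted libraries gave 2 higher (16.1%). Between neurons and oligodendrocytes DESeq2 called 2 higher (15.3%), all 24 nuclear libraries in the fit 1 higher (16.3%) and 2 lower (18.4%), and omitting both doubted libraries 2 higher (17.1%). Between neurons and glia DESeq2 called 1 higher (13.7%), all 24 nuclear libraries 2 (16.8%), males alone 1 (14.3%), and omitting both doubted libraries 2 (18.9%). Between astrocytes and oligodendrocytes the 1 gene lower became 2 with no filter (5.85%) or all 24 nuclear libraries (15.1%), and 0 with DESeq2 (7.22%), males alone (10.3%), females alone (0.379%) or sex as a covariate (6.31%). Leaving out each library gave 0 to 2 higher for neurons against astrocytes (5.1% to 17%) and against glia (8.39% to 19%), with 0 lower (8.81% to 20.6% and 8.26% to 20.9%). It gave 0 to 2 higher (8.19% to 16.7%) and 0 to 2 lower (9.07% to 18.8%) for neurons against oligodendrocytes, and 0 to 1 higher (7.41% to 14.6%) and 0 to 2 lower (5.35% to 11.7%) for astrocytes against oligodendrocytes. Psmd5 changed sign against oligodendrocytes (0.25 in males alone, 0.57 without both doubted libraries, and -2.64 to 0.57 when each library was left out, positive without replicate 36) and against glia (0.23, 0.47, and -1.18 to 0.44 in the same order).

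For sorted over presort nuclei, 1 gene was higher in the neuron line with no filter (2.02%), with sex as a covariate (3.7%) or with a replicate block of consecutive numbers (4.95%), a pairing the labels do not state; of the 12 such pairs 7 correlated over 0.1, and the block changed no call in the glial lines. In the astrocyte line 1 gene was lower with no filter (13.1%) or DESeq2 (11.4%), and in the oligodendrocyte line 1 was lower with DESeq2 (8.71%). Leaving out each library gave 0 to 1 lower in the astrocyte line (13.2% to 20.4%) and 0 otherwise. Causes of these shifts were not tested beyond the construction of each setting. Depth limits the presort libraries most. No paired analysis was run for nuclei against cytoplasm, where no label ties a cytoplasmic to a presort library. None was possible between sorted types, which came from mice of different lines.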

Other observations

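Among 11541 protein-coding genes outside the set, those whose log2 CPM over the 24 nuclear libraries went most closely with the mean of 35 proteasome genes were Kbtbd2 (Pearson's r 0.92), Abraxas2 (0.90), Eif4a1 (0.90), Ccndbp1 (0.89) and Vps29 (0.89). Without sorted oligodendrocyte replicate 36 these values were 0.77 to 0.83, and the closest were Timm9 (0.84), Kbtbd2 (0.83), Eif4ebp3 (0.83), Creb3 (0.82) and Nrip1 (0.82). Creb3 had r = -0.17 and Nrip1 r = -0.29 with that replicate included, so a single library decided most of this order. The libraries share depth and composition, and these values are a description.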
